A study of Zea mays with 6 samples.

Results

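The 3 gibberellin 20-oxidase genes examined here are ga20ox3 (Zm00001d042611), the gene edited in the study, and its relatives ga20ox5 (Zm00001d012212) and ga20ox1 (Zm00001d034898). They were chosen by identifier and are 3 of the 44320 rows of the deposited table of leaf transcript levels in maize (Zea mays). Both groups come from plants grown in a greenhouse under the label normal growth, with leaves taken at the V8 vegetative stage. The KO1 group holds 3 libraries from an edited line with the genotype label ZmGA20ox3 KO, and the WT group holds 3 libraries from unedited plants. The cultivar is KN5585 in the labels of both groups, and the protocol on plant growth writes KN5855 for WT. KO1 is a single edited line, and the sources used here do not give the position or sequence of its edit. The libraries are described as biological replicates, without saying whether each came from 1 plant.

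Gibberellins are plant hormones that promote stem and leaf elongation. Gibberellin 20-oxidases are dioxygenases that carry out the successive oxidations leading to the immediate precursors of the bioactive hormones, which 3-oxidases then form and 2-oxidases remove. The 20-oxidases occur as small gene families whose members are transcribed in different organs, and in Arabidopsis several of them are repressed by bioactive gibberellin. In maize, ga20ox3 and ga20ox5 are known as targets for shortening the plant. The names of the 3 genes go with their identifiers by prior knowledge, since neither the deposited table nor the RefSeq gene table pairs them.

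The edited gene had a lower transcript level in each KO1 library than in any WT library. Levels are given in TPM, a unit of transcript abundance that corrects for gene length and fixes the total of each library. The transcript of ga20ox3 was at 0.56, 0.74 and 0.65 TPM in KO1 replicates 1 to 3, against 2.67, 4.53 and 4.10 TPM in WT replicates 1 to 3. The KO1 values lay close together and the WT values were wider apart, with a gap between the highest KO1 and the lowest WT library. The mean was 0.65 ± 0.09 TPM in KO1 and 3.77 ± 0.974 TPM in WT (SD, n = 3 each), so the KO1 mean was 17.3% of the WT mean.

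On the log2(TPM + 1) scale ga20ox3 fell by 1.51 in KO1 (SE 0.23, 95% interval -2.06 to -0.96). Adding 1 before the logarithm makes the change of a gene at such low levels look smaller than the ratio of its means. The difference passed the threshold over all 20990 tested genes (limma adjusted p = 0.0115), and the exact two-sided permutation p was 0.1, the smallest that 3 against 3 libraries can give. The gene entered the test through its WT libraries alone, since it was under 1 TPM in all 3 KO1 libraries. Among the 224 genes at 1 TPM or more in every WT library and under 1 TPM in every KO1 library, 72.3% passed the same threshold, so passing was common in this class. Without WT replicate 3 the difference was -1.45 and did not pass (limma adjusted p = 0.06). The level of a transcript does not show whether an edit altered the protein. In whole leaves, fewer cells with the transcript and less transcript per cell cannot be told apart.

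**Figure D1:**
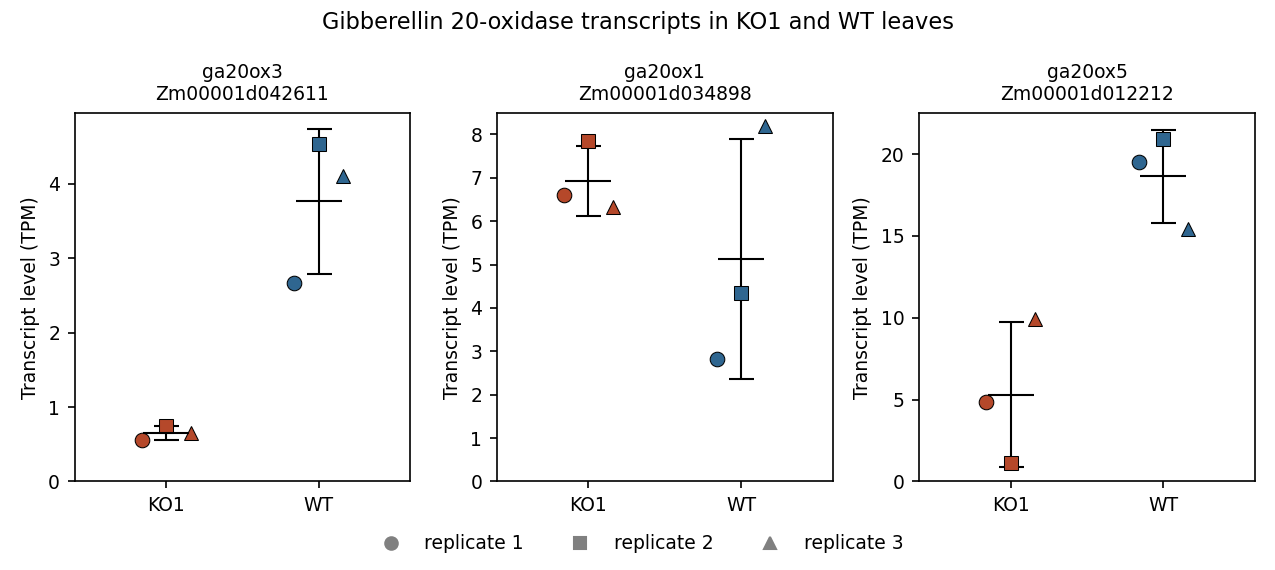
Transcript level in TPM of ga20ox3, ga20ox1 and ga20ox5 in each library, with KO1 left of WT in every panel, marker shape for the replicate number, and a line and bars for the mean and SD (n = 3). Each panel has its own vertical scale from 0; the groups do not overlap for ga20ox3 and ga20ox5, and they overlap for ga20ox1.

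The transcript of ga20ox5 was the most abundant of the 3 in every WT library and was lower in each KO1 library. It was at 4.86, 1.13 and 9.93 TPM in KO1 replicates 1 to 3, against 19.53, 20.92 and 15.44 TPM in WT replicates 1 to 3. The groups did not overlap, and the KO1 libraries differed widely among themselves, with replicate 2 lowest and replicate 3 highest. The highest KO1 value was 8.79 times the lowest, while the highest WT value was 1.35 times the lowest. The mean was 5.31 ± 4.42 TPM in KO1 and 18.6 ± 2.85 TPM in WT (SD, n = 3 each), and the KO1 mean was 28.5% of the WT mean.

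The difference for ga20ox5 was -1.92 on the log2(TPM + 1) scale (SE 0.56, 95% interval -3.26 to -0.58). It was larger in size than that of ga20ox3 on this scale, but smaller with a pseudocount of 0.1 (-2.24 for ga20ox5 and -2.34 for ga20ox3), with library weights and without KO1 replicate 2. As a ratio of mean TPM, KO1 over WT, ga20ox3 was also the further from 1, at 0.173 against 0.285 for ga20ox5. The difference for ga20ox5 did not pass over all tested genes (limma adjusted p = 0.0636, unadjusted p = 0.0121), and the exact two-sided permutation p was 0.1, the smallest possible. The value moved most with the KO1 libraries: without KO1 replicate 3 the difference was -2.46 and passed (limma adjusted p = 0.0344), and without KO1 replicate 2 it was -1.28 (limma adjusted p = 0.0635). The SD of log2(TPM + 1) for ga20ox5 was 1.19 among KO1 libraries and 0.22 among WT libraries. Over all tested genes the median SD was 0.29 in KO1 and 0.24 in WT, and 96.9% of tested genes varied less than ga20ox5 among KO1 libraries.

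The transcript of ga20ox1 showed no difference beyond the spread between libraries. It was at 6.61, 7.84 and 6.33 TPM in KO1 replicates 1 to 3, against 2.83, 4.35 and 8.20 TPM in WT replicates 1 to 3. All 3 KO1 values lay above WT replicates 1 and 2 and below WT replicate 3, so the groups overlapped. The mean was 6.93 ± 0.803 TPM in KO1 and 5.13 ± 2.77 TPM in WT (SD, n = 3 each). The difference was 0.46 on the log2(TPM + 1) scale (SE 0.33, limma adjusted p = 0.366, exact two-sided permutation p = 0.4). Its 95% interval ran from -0.33 to 1.26, so a moderately higher level in KO1 lies within it, and a fall as large as that of ga20ox3 does not. The value rested on single WT libraries: the difference was 0.80 without WT replicate 3 (limma adjusted p = 0.144), 0.17 without WT replicate 1 (limma adjusted p = 0.738) and -0.14 with library weights (limma adjusted p = 0.77).

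Set against all genes, 1 of the 3 gibberellin 20-oxidases passed the threshold, as lower in KO1, and 0 passed as higher. Of all tested genes 15.7% passed in either direction, 5.86% as lower and 9.87% as higher in KO1. These are 1230 lower and 2071 higher genes, a split that was 1738 lower and 1656 higher after quantile normalization. The 3301 genes called in all became 1482 when KO1 replicate 1 was left out and 1856 when KO1 replicate 2 was. They became 1314 when WT replicate 1 was left out, 778 when WT replicate 3 was, and 6838 with library weights. The values of 2 of the 3 genes did not overlap between the groups, both lower in KO1, which held for 17.6% of tested genes. Groups that do not overlap, in either direction, made up 40.5%. For ga20ox3 the lack of overlap was fixed by the filter. With every KO1 library under 1 TPM, it could enter only with every WT library at 1 TPM or more. The same holds for all 224 genes of that class, so these shares are no background for ga20ox3. Differences lower than that of ga20ox5 were found for 289 tested genes and lower than that of ga20ox3 for 576. The median difference of the 3 genes was -1.51 on the log2(TPM + 1) scale, which is the value of ga20ox3 itself. The other members were at -1.92 (ga20ox5) and 0.46 (ga20ox1). The median of all tested genes was 0.05.

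**Figure D2:**
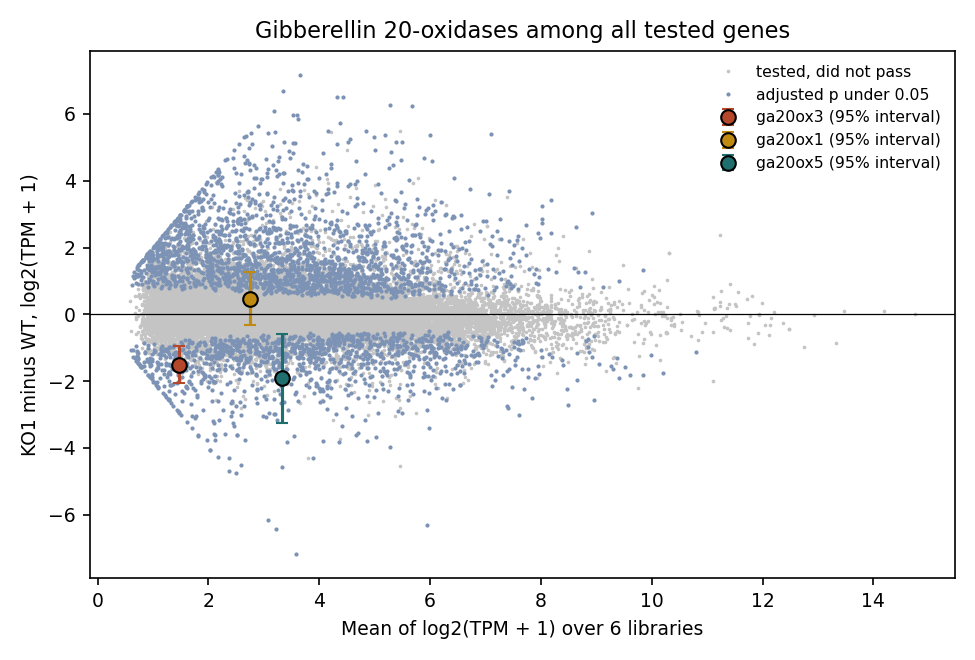
Difference between KO1 and WT (log2(TPM + 1), KO1 minus WT) against the mean of log2(TPM + 1) over the 6 libraries for the 20990 tested genes, with the 3 gibberellin 20-oxidases drawn with their 95% intervals. The intervals of ga20ox3 and ga20ox5 lie below 0, and that of ga20ox1 spans 0; the interval is for a single gene, and of the 3 only ga20ox3 passed after adjustment over all genes.

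The transcripts of ga20ox3 and ga20ox1 were of low to middling abundance in these leaves, as was ga20ox5 in KO1, while ga20ox5 placed higher in WT. In KO1 libraries ga20ox3 exceeded 16.1% to 18.3% of the rows above 0 in the same library, against 36.0% to 40.9% in WT libraries. For ga20ox5 this share was 22.9% to 56.1% in KO1 and 66.6% to 72.3% in WT. For ga20ox1 it was 46.9% to 50.9% in KO1 and 36.9% to 53.2% in WT. These places within a library do not depend on a common scaling factor, and they kept the same picture of overlap as the TPM values. None of the 3 rows shared all its values with another row of the table. How reads common to related genes were divided among them is not stated in the labels.

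The summed level of the 3 transcripts is given as a description, with no test. It was 12.03, 9.71 and 16.91 TPM in KO1 replicates 1 to 3, against 25.03, 29.80 and 27.74 TPM in WT replicates 1 to 3. No KO1 sum reached a WT sum. The mean was 12.9 ± 3.67 TPM in KO1 and 27.5 ± 2.39 TPM in WT (SD, n = 3 each). Most of the difference in summed TPM lay in ga20ox5, which did not pass its own test: the KO1 mean minus the WT mean was -13.3 TPM for ga20ox5, -3.12 TPM for ga20ox3 and 1.8 TPM for ga20ox1.

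The makeup of the sum differed as well. The edited gene made up 5.37% ± 1.99 of the sum in KO1 and 13.6% ± 2.51 in WT (SD, n = 3 each). For ga20ox5 the share was 36.9% ± 23.7 in KO1 and 68.0% ± 11.4 in WT, and the ranges overlapped, with KO1 replicate 3 at 58.7% and WT replicate 3 at 55.7%. The difference in this mean share was -31.0 percentage points, and -18.4 without KO1 replicate 2. For ga20ox1 it was 57.7% ± 21.8 in KO1 and 18.5% ± 9.73 in WT. Each KO1 library held a larger share of ga20ox1 than any WT library, at 37.4% or more in KO1 and at most 29.6% in WT. Shares of a fixed whole are tied to each other, so a higher share of ga20ox1 need not mean a higher level. Its own mean was 6.93 TPM in KO1 and 5.13 TPM in WT, a difference not beyond the spread. How much of its higher share came from its own level was not tested.

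**Figure D3:**
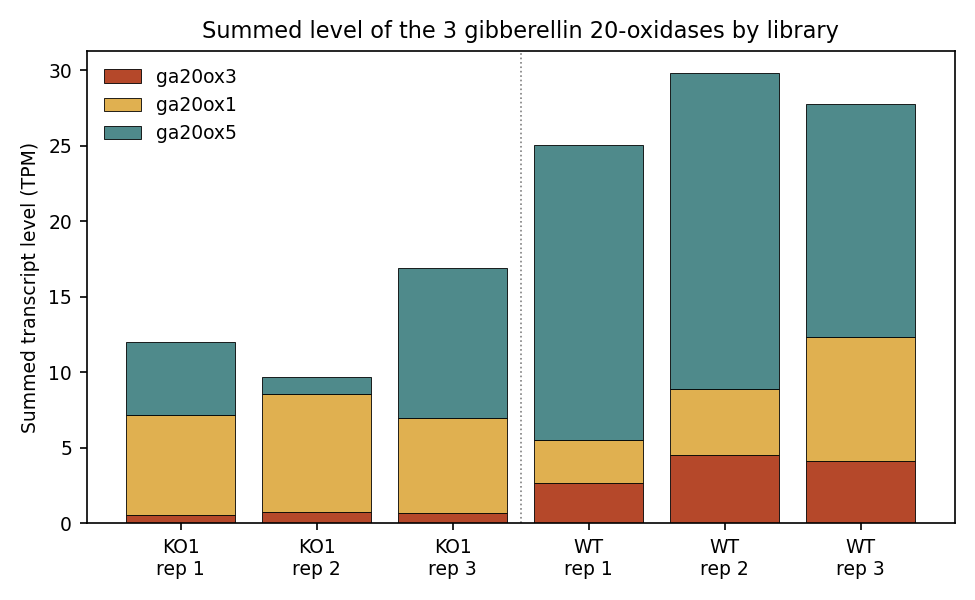
Summed TPM of the 3 gibberellin 20-oxidases in each library, KO1 libraries on the left and WT libraries on the right, with stacked bars for ga20ox3 (bottom), ga20ox1 (middle) and ga20ox5 (top). The KO1 sums run from 9.71 to 16.91 TPM and the WT sums from 25.03 to 29.80 TPM, and the ga20ox5 segment varies most among the KO1 libraries.

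The order of the transcripts within a library was not the same in all libraries of a group, and KO1 replicate 3 had the same order as WT replicates 1 and 3. In KO1 ga20ox3 was the lowest of the 3 in every library, while ga20ox1 was the highest in replicates 1 and 2 and ga20ox5 in replicate 3. The levels of ga20ox1 and ga20ox5 overlapped in KO1. In WT ga20ox5 was the highest in every library, and ga20ox3 and ga20ox1 overlapped and changed places between libraries. The level of ga20ox1 was 11.8, 10.6 and 9.74 times that of ga20ox3 in KO1 replicates 1 to 3, against 1.06, 0.96 and 2.0 times in WT replicates 1 to 3.

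Whether the genes differed from each other in their change was tested on the log2 ratio of each pair within a library, for 3 pairs, a test chosen after the values were seen. The ratio of ga20ox3 over ga20ox1, each as TPM + 1, averaged -2.26 ± 0.1 in KO1 and -0.29 ± 0.49 in WT (SD, n = 3 each). The ratio of ga20ox1 over ga20ox5 averaged 0.62 ± 1.33 in KO1 and -1.76 ± 0.83 in WT. Neither pair overlapped between the groups. Other gene pairs were not measured for comparison, and 40.5% of single tested genes did not overlap, in either direction. That share is of genes and not of ratios. It is no background for the pair with ga20ox3, which entered the test through its WT libraries alone. Both pairs had an exact two-sided permutation p of 0.1, the smallest possible, and 0.15 after Benjamini-Hochberg adjustment over the 3 pairs. The ratio of ga20ox3 over ga20ox5 averaged -1.64 ± 1.24 in KO1 and -2.05 ± 0.4 in WT, and these overlapped (exact permutation p = 0.8, adjusted 0.8). The exact test cannot go below 0.1 with 3 libraries a group, however large the difference, so its outcome neither shows nor denies that the genes changed unequally.

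Likeness to the edited gene was measured as the root mean square distance between log2(TPM + 1) profiles over the 6 libraries, each gene centred on its own mean. The nearest tested genes were Zm00001d045377 at a distance of 0.07 and Zm00001d000877, also at 0.07, and these 2 were the only genes within 1.5 times the first distance. Zm00001d045377 was at 0, 0.10 and 0.16 TPM in KO1 replicates 1 to 3, against 1.27, 2.48 and 2.10 TPM in WT replicates 1 to 3. Zm00001d000877 was listed at 0 in each KO1 library, against 1.39, 2.19 and 1.95 TPM in WT replicates 1 to 3. Both were picked for this likeness over the same 6 libraries, so their lower level in KO1 and the order of their WT values follow from the choice, and both passed the filter through their WT libraries alone. The files do not pair them with names. By the same measure ga20ox5 lay at 0.78 and ga20ox1 at 1.03 from ga20ox3, where the median tested gene lay at 0.85. Of all tested genes, 39.6% were nearer to the edited gene than ga20ox5 was, and 70.6% nearer than ga20ox1. The distance reflects the size of a change as well as its direction. A gene that hardly changed can therefore lie about as near to ga20ox3 as ga20ox5 did. These shares do not show which genes moved in the same direction as ga20ox3.

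The differences of ga20ox3 and ga20ox5 kept their direction under all 15 alternative fits of each, most of which could not have reversed it. With groups that do not overlap, leaving out a library, changing the pseudocount or weighting libraries cannot change the direction. The filters, the variance trend and the replicate block leave the difference itself as it was. Only trimmed-mean scaling and quantile normalization could have reversed it. The difference of ga20ox1 was positive in 14 of its 15 fits and was -0.14 with library weights. In that fit WT replicate 3 was weighted at 8.53 and the other libraries at 1.07 or less.

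**Figure D4:**
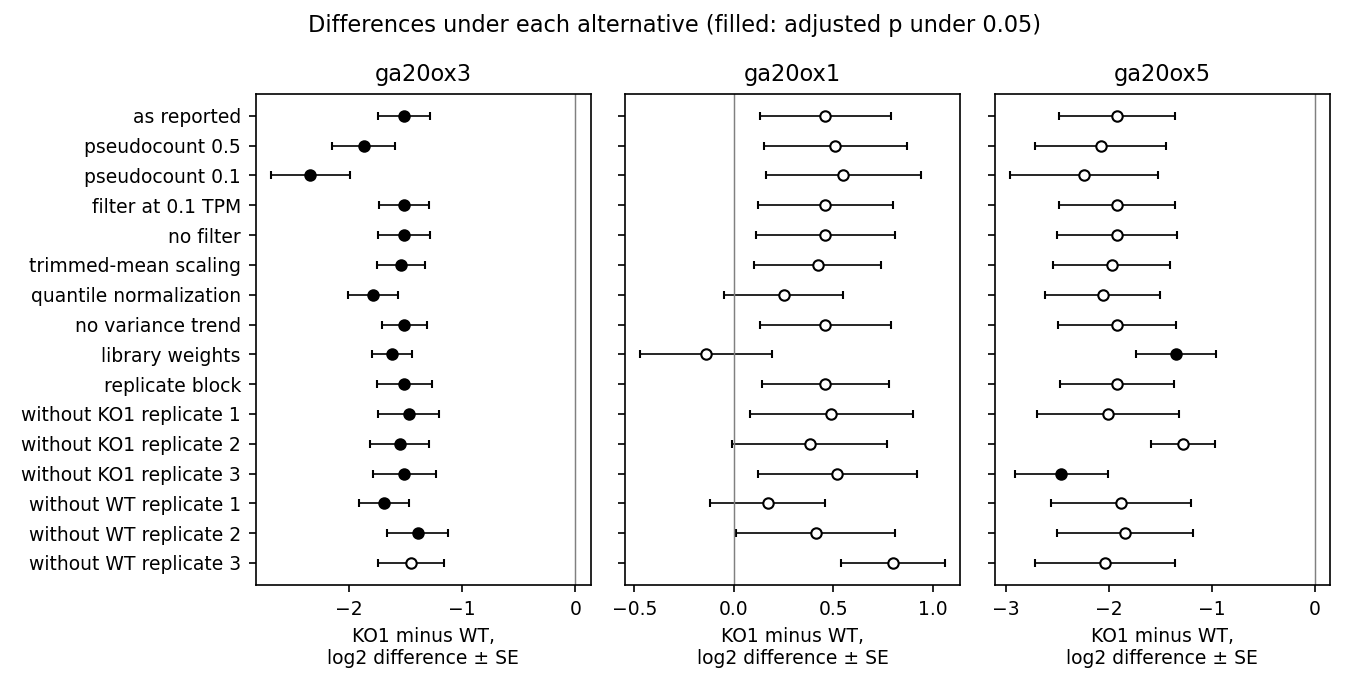
KO1 minus WT difference on a log2 scale with its SE for ga20ox3, ga20ox1 and ga20ox5 as reported (top) and under 15 alternatives, with filled points for a limma adjusted p under 0.05 and a horizontal scale of its own in each panel. The points of ga20ox3 are filled except without WT replicate 3, those of ga20ox1 are open throughout, and those of ga20ox5 are filled with library weights and without KO1 replicate 3.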

How the data were processed

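The deposited table holds TPM values of 44320 rows in 6 leaf libraries, given to 2 decimals, with library totals of 1000000 to 1000001. The submitters' processing notes list RSEM, Bowtie2 and DESeq2 with no roles; genome build, annotation and read filters were not given in the sources used here. Depth is unknown, so neither counting intervals nor floors are given. Groups and replicate numbers come from the sample titles. The 3 genes, the lists and the tests were chosen with earlier results of these data known.

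Genes with at least 1 TPM in at least 3 libraries (20990) entered a two-sided limma fit of log2(TPM + 1) with trended variance (limma 3.58.1, R 4.3.3), with Benjamini-Hochberg adjustment over all tested genes and a threshold of 0.05. Group means of log2(TPM + 1), and of the log2 ratios of gene pairs, were compared by exact permutation of the libraries (scipy 1.17.1). The fit was checked on simulated data. If the replicates were not separate plants, p-values measure technical spread. The text names the 3 genes and the 2 tested genes nearest in profile to ga20ox3. Of 44320 identifiers 0 matched the RefSeq gene table (assembly Zm-B73-REFERENCE-NAM-5.0), so other gibberellin genes and leaf markers were not analysed here, and no sequence is shown. Plots used matplotlib 3.10.9.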

Additional observations from a re-analysis of the deposited data

How the results depend on the processing

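For ga20ox3 the difference ranged from -1.69 to -1.39 when each library was left out, and the call was lost only without WT replicate 3; with the other 9 alternatives it passed, from -2.34 (pseudocount 0.1) to -1.51. For ga20ox5 it ranged from -2.46 to -1.28 when each library was left out, and the other 9 gave -2.24 to -1.35. It passed without KO1 replicate 3 and with library weights (-1.35, limma adjusted p = 0.0398). The weights were 8.53 for WT replicate 3 and 0.38 for KO1 replicate 2, the library lowest in ga20ox5. For ga20ox1 the difference ranged from 0.17 to 0.80 when each library was left out, and library weights gave -0.14 (limma adjusted p = 0.77). It passed in 0 of 15. Quantile normalization moved the median difference of all tested genes by -0.13; relative to the median, ga20ox3 was at -1.70, ga20ox1 at 0.34 and ga20ox5 at -1.97, against -1.56, 0.42 and -1.97 as deposited. The count of called genes was 3301, 6838 with library weights and between 778 and 2929 without single libraries; the cause was not tested. The difference in summed TPM was -16.6 to -13.1 when each library was left out. The KO1 minus WT difference in share of the sum was -9.62 to -7.35 percentage points for ga20ox3, 27.7 to 49.4 for ga20ox1 and -41.9 to -18.4 for ga20ox5 without single libraries. The ga20ox3 over ga20ox5 difference in log2 ratio of 0.41 turned to -0.10 with pseudocount 0.1 and ranged from -0.27 (without KO1 replicate 2) to 0.95 when each library was left out, alternatives chosen after seeing the data. Same-numbered libraries had deviations from their group means that correlated at -0.01, 0.09 and 0.02 across genes, so equal numbers were not taken as pairs. A replicate block gave 2806 called genes and changed none of the 3 calls. With every replicate number in both groups, a block cannot move the differences. They stayed at -1.51 for ga20ox3, 0.46 for ga20ox1 and -1.92 for ga20ox5. The limma adjusted p with the block was 0.0276 for ga20ox3, 0.377 for ga20ox1 and 0.0855 for ga20ox5. Depth is unknown, so the counting error behind levels under 1 TPM cannot be given.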

Other observations

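Within each group, the library with the lowest ga20ox5 level had the highest ga20ox1 level. In KO1 this was replicate 2, with 1.13 TPM of ga20ox5 and 7.84 TPM of ga20ox1, and in WT it was replicate 3, with 15.44 TPM of ga20ox5 and 8.20 TPM of ga20ox1. The library with the highest ga20ox5 level had the lowest ga20ox1 level in KO1 (replicate 3, with 9.93 TPM and 6.33 TPM) but not in WT, where replicate 2 had the most ga20ox5 and replicate 1 the least ga20ox1. The pattern was noticed in these values, rests on 3 libraries a group and was not tested.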
